A study of Mus musculus with 6 samples.

Results

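Chemokine receptors are the subject here: Ccr2, Ccr4, Ccr8, Ccr9, Ccr10, Cxcr3, Cxcr4, Cxcr6 and Cx3cr1, 9 genes picked by name, with no threshold on a measured value, when earlier results of these data were known. Of these, 8 had a row among the 12942 genes of the deposited table, and all 8 were among the 11226 genes tested. Ccr10, the receptor for the skin and mucosal chemokines CCL27 and CCL28, had no row and was not analysed here. RNA sequencing had been done on invariant natural killer T (iNKT) cells of the type 1 class, T lymphocytes with a semi-invariant receptor for lipids shown by CD1d, which are abundant in the mouse liver. The cells were primary liver cells that bound the CD1d tetramer and carried YFP, in 3 libraries of the control group and 3 of the group named cKOHet, numbered 1, 2 and 4 in each. Control mice carried Tbx21Cre and Rosa26-YFP. The cKOHet mice carried both of these and also Ets1F/F, that is, floxed Ets1 alleles on both chromosomes, and Tbx21F/+, a single floxed allele of the gene for the transcription factor T-bet.

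The comparison asks what losing Ets1, with a floxed Tbx21 allele beside it, does to transcripts of cells in which Tbx21 is active. Both groups share the Cre and the reporter, so deletion and YFP are limited to cells that have turned on the Tbx21 driver. The 2 floxed genes differ together between the groups, and their effects cannot be told apart. The labels speak of independent replicates without naming mice, and the column codes of replicate 1 join a pair of names in each group, so the p-values rest on library-to-library spread, which may be partly technical. Cells from thymus, and mice lacking Ets1 without the Tbx21 allele, were not analysed here.

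Chemokine receptors are 7-pass membrane proteins that couple to inhibitory G proteins and steer cells along gradients of chemokines. In T cells each receptor is associated with a destination or state: CXCR6 with the liver sinusoids, CXCR3 with inflamed tissue rich in interferon, CCR9 with the gut, and CCR4 and CCR8 with skin and with type 2 responses. CXCR4 is the receptor for the homeostatic chemokine CXCL12, CCR2 and CX3CR1 serve recruitment from blood and patrolling of vessels, and arrestins and G protein-coupled receptor kinases silence all of them after use.

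The values are normalised read counts, summing to between 4996523 and 5219483 per library, and the original depth is unknown. Ets1 was at 7391, 6255 and 7787 in control replicates 1, 2 and 4 and at 462, 596 and 441 in cKOHet libraries (log2 fold change -3.84, SE 0.14, adjusted p = 1.06e-10). Tbx21 was at 2434, 2504 and 2765 in the control and at 2173, 2316 and 2127 in the cKOHet libraries (-0.22, SE 0.11, adjusted p = 0.196), and the groups did not overlap. All 8 chosen markers of iNKT1 cells had a row, with a summed level of 33105 to 38192 in control and 27799 to 32571 in cKOHet libraries. Within that list Il2rb, which made up more of the sum than any other member, was called lower (-0.72), Ifng (2.14) and Zbtb16 (0.53) were called higher, and 5 were not called. B cell, plasma cell and neutrophil markers had no row at all, 0 of 7, 0 of 4 and 0 of 7. Hepatocyte markers all had a row (8 of 8), summing to 205 to 388 in control and 270 to 645 in cKOHet libraries. Endothelial markers (3 of 7 with a row) summed to 182 to 226 and 67.5 to 93.45, and gamma delta T cell markers (2 of 5) to 20.2 to 69.5 and 50 to 81.6. Xist was under 1.2 in replicate 4 of both groups and between 4337 and 5657 in the other 4 libraries.

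The start-site regions of 4 receptors are shown, picked by their changes, matches and positions. Ccr4 and Cxcr3 fell in cKOHet cells and are the only members whose 250 bases before the start hold the Ets-type hexamer GGAAGT. Cxcr4 also fell and has no such match. Ccr8 and Cx3cr1 rose and lie next to each other on chromosome 9, and Ccr9, which also rose, is not shown. The sequences come from RefSeq on GRCm38.p6, read 5′ to 3′ on the gene's own strand and ending at the base before the start. Capitals mark GGAAGT or, on the other strand, its reverse complement in Cxcr3, and the Runx-type hexamer TGTGGT as its reverse complement in Cxcr3 and Cx3cr1.
Ccr4, chr9:114496545-114496794, minus strand: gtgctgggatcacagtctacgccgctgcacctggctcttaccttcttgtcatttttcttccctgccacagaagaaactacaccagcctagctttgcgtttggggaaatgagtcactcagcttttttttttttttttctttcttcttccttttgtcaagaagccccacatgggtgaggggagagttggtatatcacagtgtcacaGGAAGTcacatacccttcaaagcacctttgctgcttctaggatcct
Cxcr3, chrX:101734148-101734397, minus strand: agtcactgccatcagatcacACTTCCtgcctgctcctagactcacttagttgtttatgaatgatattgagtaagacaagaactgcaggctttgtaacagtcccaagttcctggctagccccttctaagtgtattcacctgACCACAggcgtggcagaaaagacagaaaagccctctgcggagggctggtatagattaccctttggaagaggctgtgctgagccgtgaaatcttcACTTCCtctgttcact
Ccr8, chr9:120091883-120092132, plus strand: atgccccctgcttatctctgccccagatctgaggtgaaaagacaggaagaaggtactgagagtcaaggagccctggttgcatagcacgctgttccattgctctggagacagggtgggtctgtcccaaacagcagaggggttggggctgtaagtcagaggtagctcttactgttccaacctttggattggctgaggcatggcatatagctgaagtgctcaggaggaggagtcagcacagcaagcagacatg
Cx3cr1, chr9:120068297-120068546, minus strand: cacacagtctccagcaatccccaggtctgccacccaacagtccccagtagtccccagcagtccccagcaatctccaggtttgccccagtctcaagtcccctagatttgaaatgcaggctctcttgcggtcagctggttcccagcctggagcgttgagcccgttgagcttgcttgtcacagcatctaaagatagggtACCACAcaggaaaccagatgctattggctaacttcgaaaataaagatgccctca

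In Ccr4 the GGAAGT match lies 46 to 41 bases before the start, and in Cxcr3 the matches lie 230 to 225 and 16 to 11 bases before it. Of the 8 members with a promoter in the RefSeq table, 2 held GGAAGT on either strand, against 19.7% of 32851 promoters of the same length and 24.7% of those of tested genes. Its core GGAA, which every GGAAGT match contains, was in 8 of 8 and in 93.5% of all promoters. The T-box-type heptamer GGTGTGA was in 0 of 8, against 3.33% of all promoters, and TGTGGT was in 3 of 8 (Cx3cr1, Cxcr3 and Cxcr6), against 14.1%. A match is a description of letters and not evidence of binding. No protein sequence was used here.

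Across the 8 receptors tested, 3 rose in cKOHet cells (Ccr8, Cx3cr1 and Ccr9), 3 fell (Ccr4, Cxcr4 and Cxcr3), and Ccr2 and Cxcr6 were not called. Among all 11226 genes tested, 2407 were called (21.4%), 11.5% higher and 9.97% lower. For 6 of the 8 receptors the groups did not overlap, against 35.8% of all genes tested. The median log2 fold change of the 8 was -0.03, beside 0.01 over all genes, and the median size without sign was 1.78, beside 0.30. Ccr8 and Cx3cr1 reached the minimum of 10 in cKOHet libraries alone, so for these a difference was built into passing the filter, and the counts are a description of the chosen genes.

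**Figure D1:**
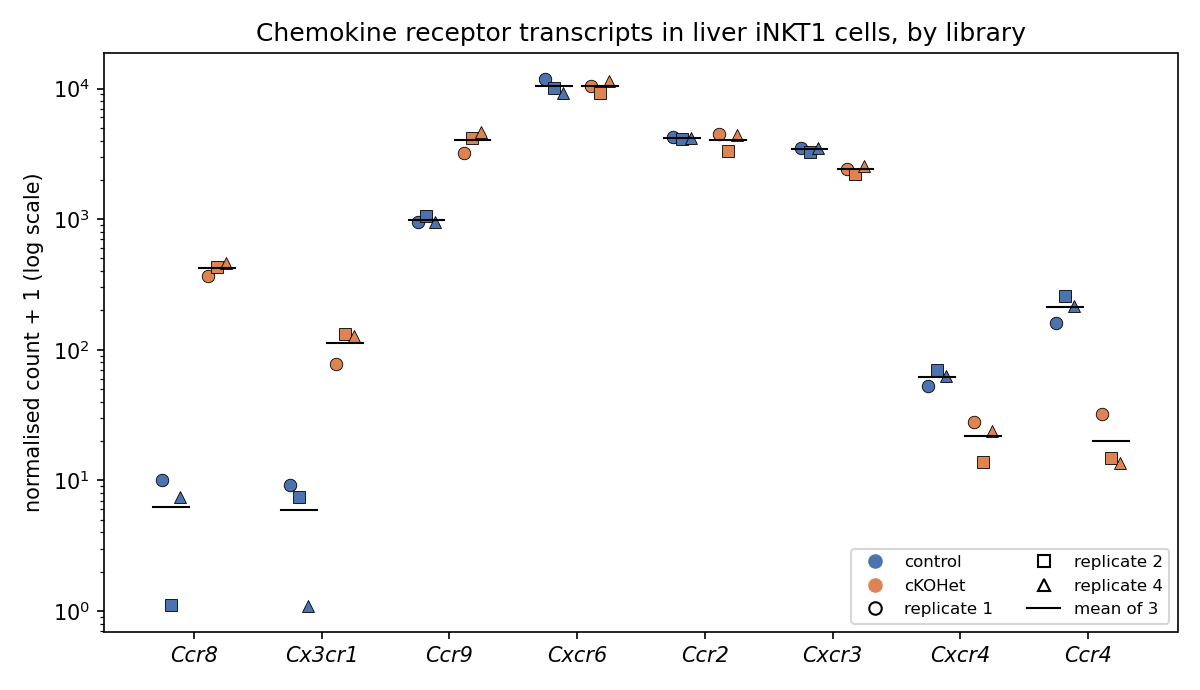
Normalised count plus 1 (log scale) of the 8 chemokine receptors in each library, with circles, squares and triangles for replicates 1, 2 and 4 and bars for the mean of 3. Ccr8, Cx3cr1 and Ccr9 lie higher in all 3 cKOHet libraries, Cxcr3, Cxcr4 and Ccr4 lower, and Cxcr6 and Ccr2 overlap.

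Cxcr6, whose product binds CXCL16 on the lining of liver sinusoids, was the most abundant of the receptors per length and was not called. It was at 11761, 10135 and 9282 in control replicates 1, 2 and 4 and at 10528, 9294 and 11438 in cKOHet replicates 1, 2 and 4. The groups overlapped over nearly their whole range. The log2 fold change was 0.01 (SE 0.14, 95% interval -0.30 to 0.31, adjusted p = 0.986).

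Cxcr3, the receptor for the interferon-induced chemokines CXCL9, CXCL10 and CXCL11 and a known target of T-bet, fell modestly. It was at 3509, 3285 and 3503 in control and at 2437, 2223 and 2558 in cKOHet libraries. Every cKOHet library lay below every control library, with little spread in either group. On the log2 scale the difference was -0.51 (SE 0.11, 95% interval -0.75 to -0.27, adjusted p = 0.00377). In bulk RNA, fewer cells that express a gene and less RNA per cell cannot be told apart, here and for every receptor below.

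Ccr2, the receptor for CCL2 on monocytes and on effector T cells that leave the blood, was not called. It was at 4246, 4118 and 4193 in control libraries and at 4523, 3295 and 4381 in cKOHet libraries. The control libraries had a coefficient of variation of 1.54%, while cKOHet replicate 2 lay below all others and gave its group a coefficient of 16.5%. The log2 fold change was -0.06 (SE 0.13, 95% interval -0.34 to 0.23, adjusted p = 0.827), and it was 0.09 without cKOHet replicate 2.

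Cx3cr1, the fractalkine receptor of patrolling monocytes, macrophages and terminally differentiated cytotoxic lymphocytes, rose from near absence to a low level. It was at 8.14, 6.45 and 0.10 in control libraries and at 76.5, 132 and 127 in cKOHet libraries. The lowest cKOHet library lay well above the highest control library. The log2 fold change was 4.70 (SE 0.65, 95% interval 3.31 to 6.09, adjusted p = 8.05e-05). Its size rests on few reads in the controls: it was 3.73 without control replicate 4, 3.64 with a pseudocount of 5 in place of 1, and 3.62 when replicate 4 of both groups, low in Xist, was left out, and it stayed called in each.

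Macrophage and monocyte markers were looked at because they could bring Cx3cr1 and Ccr2 into a sort. Of 12 such markers, 9 had a row, and Cd14 and Fcgr1 were among those with none. Ly6c2, which T cells also express, made up most of their sum and fell, so that the sum went from 2278 to 2953 in control to 505 to 915 in cKOHet libraries. The other 8 summed to 34.4 to 96.6 in control and 141.4 to 188.2 in cKOHet libraries, and Csf1r (2.20 to 11.9 and 24.2 to 27.2) and Clec4f (1.15 to 11.0 and 22.2 to 32.7) were called higher. The macrophage marker Adgre1 was at 0.04 to 2.72 and 1.79 to 16.1. C1qa (6.38 to 6.40 and 13.09 to 18.65, adjusted p = 0.0991) was not called, and C1qc (1.13 to 5.33 and 7.31 to 26.16) was not tested. Csf1r, Clec4f, C1qa, C1qc and the sum without Ly6c2 moved in the same direction as Cx3cr1, without overlap between groups. Adgre1, Cd68, C1qb and Lyz2 overlapped between groups. The 6 chosen markers of natural killer cells and type 1 innate lymphoid cells summed to 68.7 to 119.6 and 138.2 to 209.9. Of these, 5 were tested: Klra8 (3.31) and Eomes (2.57) were called higher and 3 were not called. Ncr1 was not tested and went the other way, from 8.45 to 9.47 in control to 5.52 to 7.05 in cKOHet libraries. Klra8 reached 10 in cKOHet libraries alone, and Eomes overlapped between groups. The part of these cell classes in the rise of Cx3cr1 was not tested.

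Ccr9, the receptor for CCL25 that marks gut-homing T cells and thymocytes, rose by 2.01 on the log2 scale. It was at 948, 1061 and 944 in control libraries and at 3225, 4210 and 4617 in cKOHet libraries. Even the lowest cKOHet library, replicate 1, lay far above every control library. The SE was 0.14, the 95% interval 1.72 to 2.30 and the adjusted p = 5.83e-08. Its own ligand gene, Ccl25, stayed between 5.31 and 10.2 in all 6 libraries and did not pass the filter.

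Ccr8, the receptor for CCL1 and CCL8 found on type 2 helper cells, on regulatory T cells and in skin, showed the largest rise of the 8. It was at 9.06, 0.11 and 6.47 in control libraries and at 367.6, 429.5 and 458.8 in cKOHet libraries. Controls were near 0 and the 3 cKOHet libraries lay close together. This was a log2 fold change of 6.58 (SE 0.60, 95% interval 5.30 to 7.87, adjusted p = 1.32e-06). As with Cx3cr1, the controls set its size: it was 7.18 without control replicate 1, 5.59 without control replicate 2 and 5.49 with a pseudocount of 5.

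Ccr4, the receptor for CCL17 and CCL22, which shares with CCR8 its association with type 2 helper and regulatory T cells, moved the other way. It was at 158.0, 257 and 216.5 in control libraries and at 31.2, 13.7 and 12.6 in cKOHet libraries. No cKOHet library came near the lowest control library, and cKOHet replicate 1 was the highest of its group. Its log2 fold change was -3.48 (SE 0.35, 95% interval -4.22 to -2.73, adjusted p = 3.32e-06).

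Some markers of other iNKT and T cell classes changed as well as Ccr8 and Ccr4. All 5 iNKT2 markers (Gata3, Il4, Il13, Il17rb and Icos) were called higher, and their sum went from 1593 to 1895 in control to 4051 to 5256 in cKOHet libraries. Of 5 regulatory T cell markers, 3 had a row (1094 to 1442 and 1782 to 2148 in sum), while Foxp3, which defines that lineage, had none. Il2ra, which made up most of that sum, and Capg were called higher, and Ctla4 was not called (-0.65, adjusted p = 0.478). Of 7 iNKT17 markers, 3 had a row and were called higher at low levels (8.71 to 21.4 and 90.3 to 107 in sum), of which Il1r1 and Sdc1 reached 10 in cKOHet libraries alone, and Il17a, Il17f, Il23r and Ccr6 had none. Of the CD8 markers, Cd8a was at 10.7 to 20.1 in control and at 237, 1657 and 440 in cKOHet libraries, while Cd8b1 overlapped between groups (3.56 to 31.5 and 13.6 to 35.4, adjusted p = 0.607). The mast cell gene Cpa3 went from between 1.69 and 6.45 to between 79.8 and 123, and the other 4 markers of mast cells and basophils (Mcpt8, Fcer1a, Ms4a2 and Kit) had no row. The part of these cell classes in the change of Ccr8 and Ccr4 was not tested.

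Cxcr4, the receptor for CXCL12 that retains lymphocytes in bone marrow and lymphoid tissue, was low in these cells and fell further. It was at 51.8, 69.5 and 62.3 in control libraries and at 27.2, 12.8 and 23.0 in cKOHet libraries. The groups did not overlap, and the gap between them was wider than the range within either. The log2 fold change was -1.55 (SE 0.37, 95% interval -2.33 to -0.77, adjusted p = 0.0063).

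**Figure D2:**
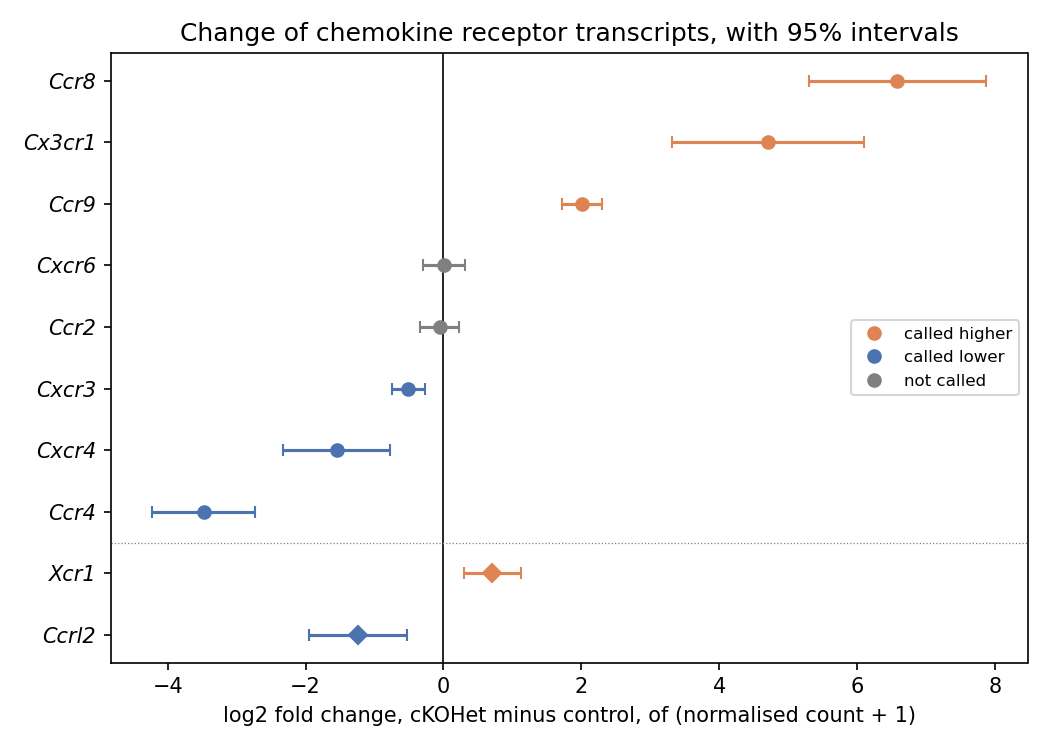
Log2 fold change, cKOHet minus control, with 95% intervals for the 8 receptors (circles) and for Xcr1 and Ccrl2 (diamonds). Intervals run from -4.22 to -2.73 for Ccr4 at the low end to 5.30 to 7.87 for Ccr8 at the high end, and those of Cxcr6 and Ccr2 span 0.

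The spread between libraries differed among the receptors. Within the control group the coefficient of variation ran from 1.54% for Ccr2 to 88.4% for Ccr8, and within the cKOHet group from 7.06% for Cxcr3 to 54.5% for Ccr4. In each group the widest spread belonged to receptors that were low there. All 6 calls kept their direction and their side of the threshold under the 19 alternatives tried, with the weakest adjusted p at 0.0449 for Cxcr3 and 0.0448 for Cxcr4.

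Levels of different receptors were compared after dividing each by its merged exon length, in normalised counts per kb. In control cells the order was Cxcr6 (5382 ± 652), Cxcr3 (1983 ± 73.8), Ccr2 (619 ± 9.54), Ccr9 (95.95 ± 6.49), Ccr4 (68.1 ± 16.1), Cxcr4 (33.8 ± 4.93), Ccr8 (4.43 ± 3.92) and Cx3cr1 (1.09 ± 0.94), each as mean ± SD with n = 3. Only the lowest pair, Ccr8 and Cx3cr1, overlapped with its neighbour in this order. In cKOHet cells the order was Cxcr6 (5396 ± 557), Cxcr3 (1390 ± 98.2), Ccr2 (602 ± 99.4), Ccr9 (391.5 ± 69.7), Ccr8 (356 ± 39.6), Cx3cr1 (24.8 ± 6.80), Cxcr4 (11.6 ± 4.08) and Ccr4 (6.20 ± 3.38). Here Ccr9 overlapped with Ccr8, and Cxcr4 with Ccr4.

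The 8 receptors together summed to 8927, 7982 and 7653 counts per kb in control libraries and to 8199, 7401 and 8934 in cKOHet libraries, so the total overlapped between the groups while its make-up shifted. Cxcr6 held 65.6% ± 2.71 of the sum in control and 65.9% ± 0.80 in cKOHet cells (SD, n = 3). The share of Cxcr3 was 24.3% ± 1.93 and 17.0% ± 0.43. The share of Ccr9 was 1.18% ± 0.13 and 4.80% ± 0.88, and that of Ccr8 0.053% ± 0.046 and 4.37% ± 0.56. The share of Ccr4 was 0.843% ± 0.243 in control and 0.0762% ± 0.0413 in cKOHet cells.

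Among all 12870 genes with an annotated length, Cxcr6 ranked between 24 and 33 per kb in control libraries and between 17 and 28 in cKOHet libraries. Ccr8 ranked between 10032 and 12630 in control and between 598 and 757 in cKOHet libraries. Ccr4 went the other way, from between 3287 and 4885 to between 9701 and 11060. The merged exons of Ccr9 span 10260 bases over 6 transcripts, and its principal transcript 5197 bases. With the lengths of principal transcripts, an alternative added after the data were seen, the share of Ccr9 was 2.24% ± 0.25 in control and 8.84% ± 1.56 in cKOHet cells, and its mean per kb (773) then lay above that of Ccr2 (709.9) in cKOHet cells.

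**Figure D3:**
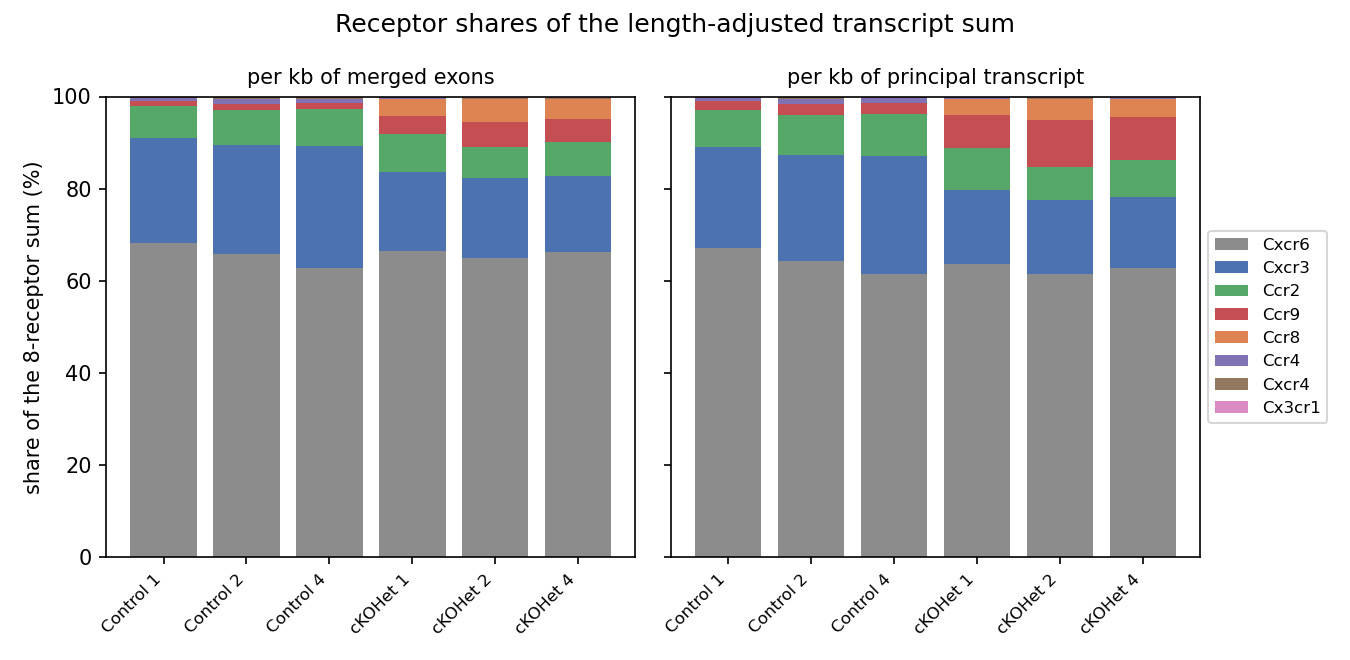
Share of each receptor in the summed counts per kb over the 8 receptors (%), by library, with merged exon lengths on the left and principal transcript lengths on the right. Cxcr6 takes 62.8% to 68.2% of every library on the left, while the bands of Ccr9 and Ccr8 are wider and that of Cxcr3 narrower in the 3 cKOHet libraries.

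Of the 8 receptors, 6 lie on chromosome 9 (GENCODE M21 on GRCm38), and 4 of these form 2 close pairs. Cx3cr1 (chr9:119901616-120069879, minus strand) and Ccr8 (chr9:120092114-120094906, plus strand) are transcribed away from each other, with RefSeq starts 23.8 kb apart. Both rose, from controls near 0. Among the other protein-coding genes within 250 kb of Ccr8, 5 were tested, 0 were called higher and 1 lower. Around Cx3cr1 6 were tested, 0 were called higher and 2 lower. The 5 genes around Ccr8 are all among the 6 around Cx3cr1, so the fall of Rpsa is counted in both. Over all genes tested, 11.5% were called higher and 9.97% lower. Slc25a38, a mitochondrial glycine carrier next to Ccr8, was not called (0.62, SE 0.28, adjusted p = 0.141). Scn11a, a sodium channel gene next to Cx3cr1, fell (-2.46, SE 0.55, adjusted p = 0.00442), with -1.86 without cKOHet replicate 2 and -1.85 with a pseudocount of 5. Rpsa, a ribosomal protein gene 32.8 kb from Ccr8, was called lower (-0.46, adjusted p = 0.0359), a call lost without control replicate 1 (0.164), control replicate 4 (0.0922), cKOHet replicate 2 (0.106) or cKOHet replicate 4 (0.114).

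The second pair, Ccr9 (chr9:123678439-123784330, plus strand) and Cxcr6 (chr9:123806475-123811760, plus strand), has RefSeq starts 39.3 kb apart and split: Ccr9 rose and Cxcr6 was not called. The 95% intervals of their log2 fold changes, 1.72 to 2.30 and -0.30 to 0.31, do not overlap, and the difference between them was not tested. Of the other protein-coding genes within 250 kb of Ccr9, 5 of 7 tested rose, and of those within 250 kb of Cxcr6, 5 of 5 rose, against 11.5% of all genes called higher. These are the same 5 genes (Slc6a20a, Lztfl1, Fyco1, Xcr1 and Sacm1l), named here after their values were seen. Calls for Slc6a20a, Lztfl1 and Fyco1 held in all 19 alternatives, and those for Xcr1 and Sacm1l did not. Slc6a20a reached 10 in cKOHet libraries alone, so its difference was built into passing the filter.

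Lztfl1, which encodes a regulator of ciliary trafficking, was at 154.0, 132.0 and 125.9 in control libraries and at 505, 460 and 535 in cKOHet libraries (1.86, SE 0.15, adjusted p = 5.12e-07). Fyco1, an adaptor that moves autophagosomes along microtubules, was at 295, 361 and 341.5 in control and at 692, 913 and 692 in cKOHet libraries (1.19, SE 0.15, adjusted p = 2.44e-05). Slc6a20a, a proline transporter gene, was listed at 0.00, 0.10 and 0.11 in control and at 106, 206 and 263 in cKOHet libraries. Cxcr6 thus sits between genes that rose on both sides, with Ccr9, Lztfl1 and Slc6a20a before its start, Xcr1 after it and Fyco1 spanning it. Sacm1l, a phosphoinositide phosphatase gene at the edge of the window, had the smallest rise (0.41, SE 0.14, adjusted p = 0.0409), and its call was lost without control replicate 2 (0.169), control replicate 4 (0.0889), cKOHet replicate 2 (0.143) or cKOHet replicate 4 (0.0777).

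Gene models overlap in this region, and the strand setting of the counting is not given in the sources used here. Ccr9 shares its span with Lztfl1 and Slc6a20a, both on the opposite strand. Of its exon bases, 22 (0.21%) lie in exons of Slc6a20a and 0 in those of Lztfl1. Whether reads of one of these genes were counted for another was not tested. Cxcr6 lies within the span of Fyco1 on the opposite strand with 0 shared exon bases, and Cx3cr1 shares 0 exon bases with the genes inside its span.

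**Figure D4:**
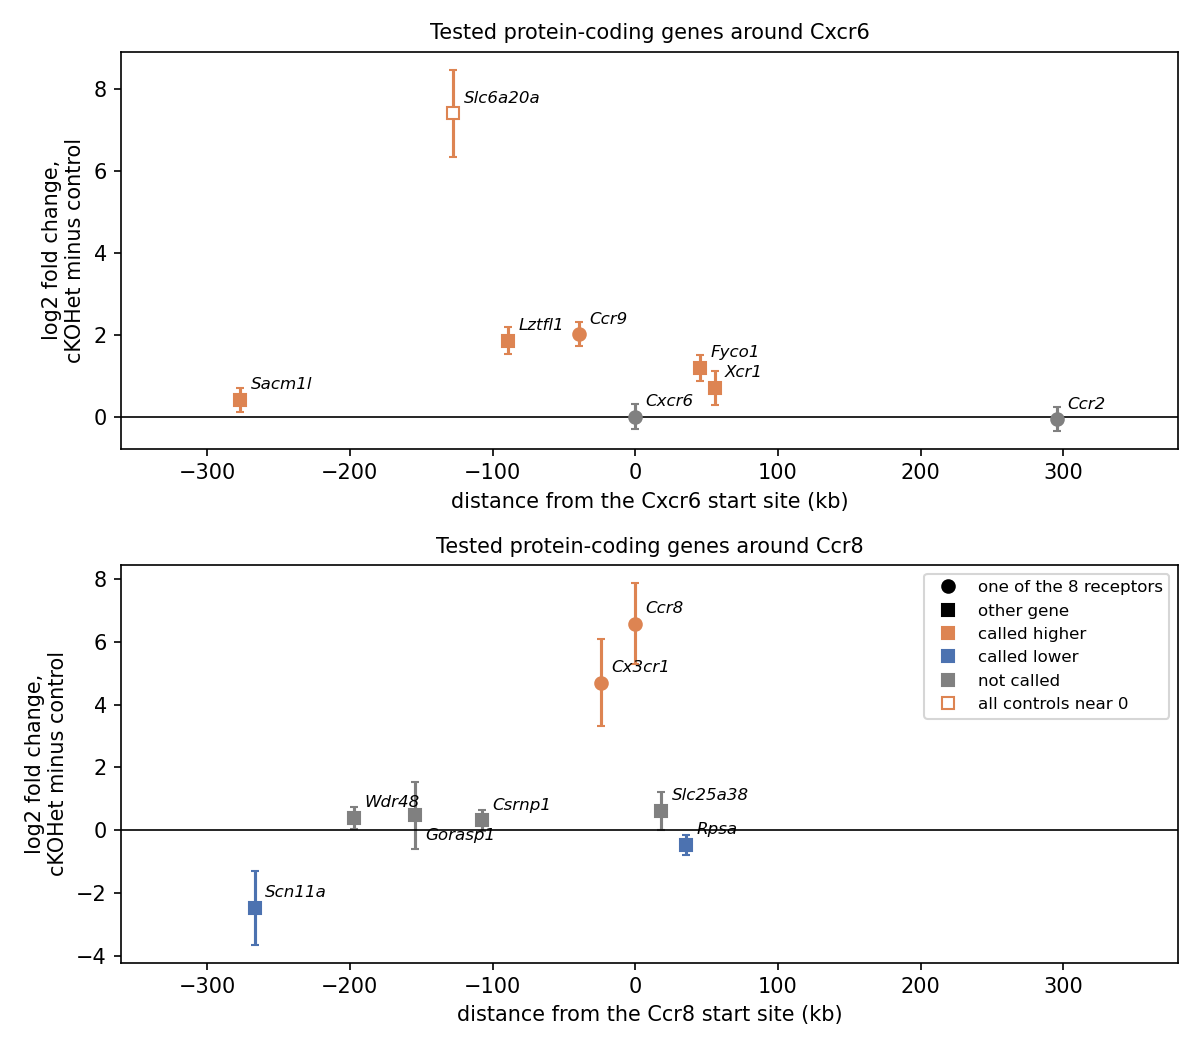
Log2 fold change with 95% intervals of tested protein-coding genes within 300 kb of the Cxcr6 start (top) and of the Ccr8 start (bottom), against distance in kb, with circles for receptors of the set and squares for other genes. Around Cxcr6, which sits at 0.01, Ccr9, Lztfl1, Fyco1, Xcr1, Sacm1l and Slc6a20a were called higher. Around Ccr8 only Cx3cr1 was called higher with it, while Wdr48, Gorasp1, Csrnp1 and Slc25a38 lie above 0 and were not called. The fitted value of Slc6a20a, drawn open, depends on the pseudocount because its controls are near 0.

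Around Ccr2 (chr9:124101950-124113557), 3 of 6 neighbouring genes were tested, and 1 rose and 1 fell. Around Ccr4 2 of 6 tested rose: Dync1li1 (0.57, adjusted p = 0.00511) and Cmtm6 (0.41, adjusted p = 0.048), which lost its call without control replicate 1 (0.216), control replicate 4 (0.0967), cKOHet replicate 2 (0.0577) or cKOHet replicate 4 (0.179). Glb1, the β-galactosidase gene 15.4 kb from Ccr4 (chr9:114490316-114504916), was not called (0.12, SE 0.15, adjusted p = 0.64). On chromosome X, Ogt, the O-GlcNAc transferase gene nearest to Cxcr3 (chrX:101731535-101734269), had a log2 difference of 0.39 (adjusted p = 0.0986), which was called without cKOHet replicate 4 (0.54, adjusted p = 0.0369). Nhsl2, 115.1 kb from Cxcr3, rose from between 0.07 and 2.21 in control to between 19.5 and 42.3 in cKOHet libraries (adjusted p = 4.07e-04). Dars, an aminoacyl-tRNA synthetase gene near Cxcr4 (chr1:128588199-128592293), had one of -0.32 (adjusted p = 0.0975). Beside the unlisted Ccr10 (chr11:101172997-101175443), Ezh1 (0.04, adjusted p = 0.896) and Plekhh3 (0.74, adjusted p = 0.563) were not called, and Cntnap1, whose span overlaps that of Ccr10, rose from between 0.07 and 1.72 to between 13.0 and 37.3 (adjusted p = 4.41e-04). Nhsl2 and Cntnap1 reached 10 in cKOHet libraries alone, and these called neighbours were chosen after their values were seen. Over all 9 receptors, 46 of 68 neighbouring genes were tested, and 12 were called, 9 higher and 3 lower, beside 21.4% of all genes called, 11.5% higher and 9.97% lower.

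A further 16 chemokine receptor genes were listed, of which 4 had a row and 3 were tested: 1 rose and 2 fell, beside 11.5% and 9.97% of all genes. Xcr1, the receptor for XCL1 best known from cross-presenting dendritic cells, was at 126, 108 and 95.2 in control and at 187, 180 and 170 in cKOHet libraries (0.71, SE 0.20, adjusted p = 0.0165). Ccrl2, an atypical receptor that presents chemerin without signalling, was at 97.1, 69.6 and 95.0 in control and at 50.4, 22.1 and 41.7 in cKOHet libraries (-1.24, SE 0.33, adjusted p = 0.0147).

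Neither Xcr1 nor Ccrl2 overlapped between groups, but each call depended on single libraries. Xcr1 lost its call without control replicate 4 (adjusted p = 0.0643), cKOHet replicate 1 (0.0539) or cKOHet replicate 2 (0.0523). Ccrl2 lost it without control replicate 1 (0.0574) or 4 (0.0604) or cKOHet replicate 2 (0.0628). Ccr7, the lymph node homing receptor, and Ccr6, a marker of type 17 cells, had no row. Of the 7 dendritic cell markers, Flt3, Clec9a, Siglech and Cd209a had no row, and the other 3, Xcr1 among them, had sums that overlapped between groups (531.8 to 567.6 and 495.3 to 579.6). Itgax went from between 13.9 and 22.3 in control to between 98.7 and 152 in cKOHet libraries and Bst2 from between 388 and 438 to between 174 and 249, and their part in the rise of Xcr1 was not tested.

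Of 31 chemokine ligand genes, 11 had a row and 6 were tested: 2 rose, 1 fell and 3 were not called, beside 21.4% of all genes called. Ccl5, a chemokine of cytotoxic cells, was at 2424, 1792 and 2084 in control and at 8010, 13101 and 8141 in cKOHet libraries (2.19, SE 0.18, adjusted p = 3.87e-07). Xcl1, the ligand of XCR1, was at 930, 586 and 731 in control and at 170, 223 and 226 in cKOHet libraries (-1.84, SE 0.18, adjusted p = 2.11e-06). In the same libraries, therefore, Xcl1 and its receptor gene Xcr1 changed in opposite directions. Ccl22, a ligand of CCR4, was at 1.72, 4.30 and 2.21 in control and at 14.1, 15.8 and 54.8 in cKOHet libraries (2.75, SE 0.63, adjusted p = 0.00525), again opposite to its receptor. It passed the minimum of 10 through cKOHet libraries alone and gave 2.15 without cKOHet replicate 4, 1.91 with a pseudocount of 5 and 2.07 with high Xist alone, where it was not called (adjusted p = 0.0822). Cxcl16, the ligand gene for CXCR6, was at 10.3 or less in every library.

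Downstream of the receptors, 15 of 18 G protein and first effector genes were tested: 5 rose, 1 fell and 9 were not called. Gnb4, a β subunit, was at 11.9, 11.7 and 3.29 in control and at 44.3, 73.5 and 87.2 in cKOHet libraries (2.91, SE 0.49, adjusted p = 4.45e-04, and 2.18 with high Xist alone). Gng2, a γ subunit, rose by 0.67 (SE 0.12, adjusted p = 7.78e-04) and Plcb2, the phospholipase that Gβγ activates, fell by 0.69 (SE 0.13, adjusted p = 0.00119). Gnaq, the α subunit of a different G protein class, rose by 1.41 (SE 0.40, adjusted p = 0.0196), a call lost without control replicate 2 (1.02, adjusted p = 0.0793), control replicate 4 (0.0627), cKOHet replicate 2 (0.0664) or cKOHet replicate 4 (0.0852). The inhibitory α subunit Gnai2, through which chemokine receptors mainly signal, was at 3611 ± 569 and 3659 ± 538 (SD, n = 3) and was not called. The median of the list was 0.27, beside 0.01 over all genes, and 21.4% of all genes were called.

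Of 19 desensitisation and trafficking genes, 16 were tested: 2 rose, 7 fell and 7 were not called, beside 11.5% of all genes higher and 9.97% lower, and the median was -0.36, beside 0.01. Arrb2, the arrestin that uncouples and internalises chemokine receptors, was at 1043, 1004 and 966 in control and at 395, 327 and 377 in cKOHet libraries (-1.46, SE 0.13, adjusted p = 6.74e-07). Its relative Arrb1 rose (0.62, SE 0.19, adjusted p = 0.0258), a call lost without control replicate 1 (0.0808), control replicate 4 (0.0806) or cKOHet replicate 4 (0.37, adjusted p = 0.104). The receptor kinase genes Grk2 (-0.505, adjusted p = 0.0102) and Grk6 (-0.49, adjusted p = 0.0113) fell, Grk5 was not called and Grk3 was not tested. Itch and Tpst1 also fell. Among the RGS genes, whose products shut off G protein α subunits, Rgs2 fell by 1.75 (SE 0.26, adjusted p = 1.46e-04) and Rgs3 by 0.70 (SE 0.12, adjusted p = 5.87e-04). Rgs16 rose from 1.14 to 4.31 in control to 18.1 to 34.2 in cKOHet libraries (2.75, SE 0.58, adjusted p = 0.0028, and 1.89 with a pseudocount of 5) and passed the filter through cKOHet libraries alone.

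Of 23 genes for cytoskeleton and integrin activation, all were tested: 0 rose, 7 fell and 16 were not called, beside 11.5% of all genes higher and 9.97% lower, and the median was -0.12, beside 0.01. Rasgrp2, the exchange factor that switches on Rap1 for integrin activation, was at 334, 300.5 and 309.5 in control and at 33.3, 14.7 and 25.1 in cKOHet libraries (-3.71, SE 0.29, adjusted p = 2.32e-07). It was the only member of the list to change by more than 1 log2 unit. Was, an actin nucleation activator (-0.76, SE 0.15, adjusted p = 0.0014), Coro1a, an actin-binding protein (-0.73, SE 0.15, adjusted p = 0.00212), and Vav1, a Rac exchange factor (-0.51, SE 0.12, adjusted p = 0.00781), fell by less. The Rac activator Dock2, which chemokine receptors use for migration, was at 6034, 5548 and 6143 in control and at 6074, 5370 and 6947 in cKOHet libraries and was not called.

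**Figure D5:**
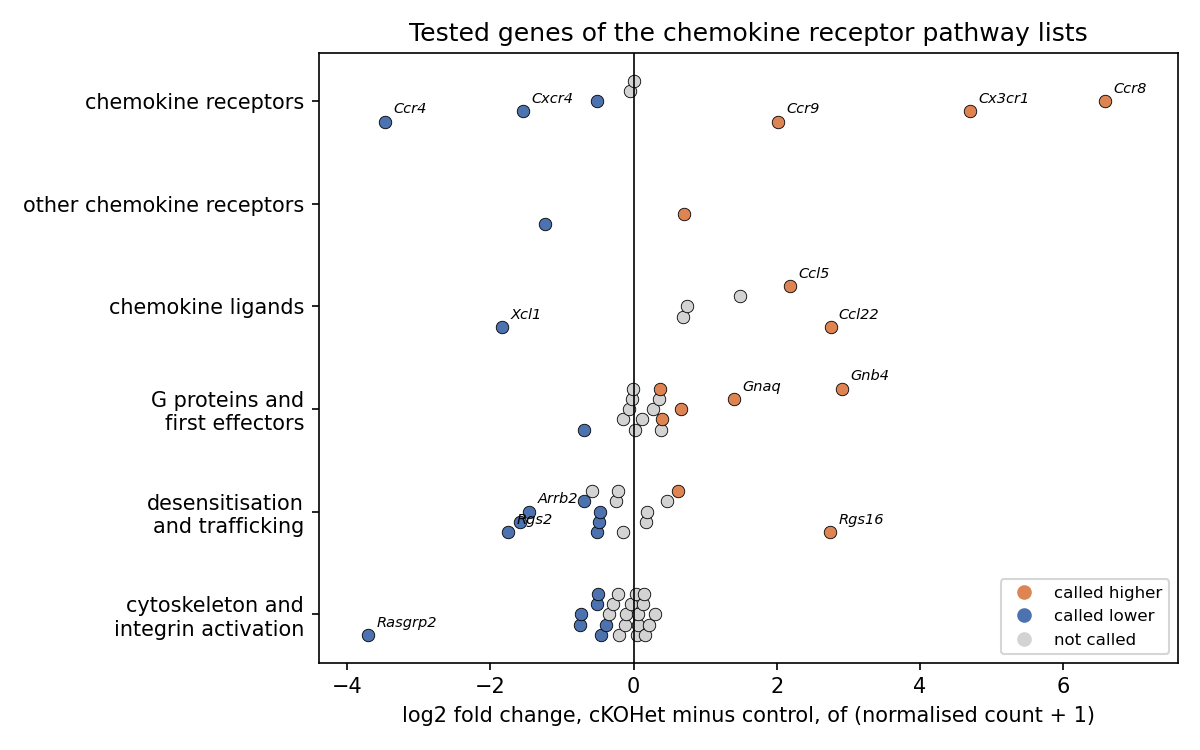
Log2 fold change, cKOHet minus control, of tested genes in 6 lists, 1 point per gene (Xcr1 and Ccrl2 for the other chemokine receptors), coloured by call, with points spread vertically for legibility and most genes past 1.4 named. The 8 receptors run from -3.48 to 6.58, the 23 cytoskeleton and integrin genes hold 7 that fell and 0 that rose, and Rasgrp2 stands apart at -3.71.

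For each receptor the gene whose 6 values, as log2 differences from its own control mean, lay nearest by Euclidean distance is given as a description. For Ccr9 it was 6330403K07Rik (distance 0.26), at 54.3, 61.3 and 55.1 in control and 205.5, 264 and 235 in cKOHet libraries. For Ccr8 it was the non-coding RNA Miat (2.60), for Cx3cr1 Gm15459 (1.44), for Ccr4 Arntl2 (0.74), and for Cxcr4 Hopxos (0.17). The 2 receptors not called had close neighbours in pattern, Snrpb2 for Ccr2 (0.063) and Tpd52l2 for Cxcr6 (0.084). So did Cxcr3, which fell modestly, with Prps1l3 (0.066). The strongly changed low genes Ccr8 and Cx3cr1 had no gene as near.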

How the data were processed

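RNA of 6 liver iNKT libraries (3 per group) was isolated with RNeasy kits and made into Ovation Ultralow libraries, per the labels' protocols. The titles of control replicate 4 and cKOHet replicate 1 say iNKT, and the other titles say iNKT1. The deposited signal per Ensembl gene is the authors' normalised HTSeq count. Trimmomatic 0.33, STAR, HTSeq 0.6.1, DESeq2 and mm10 are named in the submitters' processing notes, and what settings, strand and annotation they used was not given in the sources used here. Whole reads could not be recovered, so depth is unknown and no interval for counting error is given.

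GENCODE M21 named 12870 of 12942 identifiers. Genes at 10 or more in at least 3 of 6 libraries were analysed as log2(value + 1), which understates changes of low genes, with limma 3.58.1 in R 4.3.3 (trend) and Benjamini-Hochberg adjustment over 11226 genes, and called at an adjusted p under 0.05. Fold changes are cKOHet minus control. The receptors and lists were chosen with earlier results of these data known. Named are all receptors, the 4 pathway genes per list with the smallest adjusted p, tested nearest neighbours, the nearest gene in pattern, Ets1 and Tbx21. Other genes were chosen after their values were seen. A further chemokine receptor gene and a marker gene are counted but not reported here.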

Additional observations from a re-analysis of the deposited data

How the results depend on the processing

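The receptors called, 3 higher and 3 lower, were the same number in each of 19 alternatives. Receptors that were not called changed sign around 0: Cxcr6 gave -0.01 with median-ratio scaling, -0.06 with library weights, -0.14 in libraries with high Xist alone and -0.07 to 0.10 with a library left out, and Ccr2 gave -0.14 to 0.09 with a library left out. Ezh1, beside Ccr10, gave -0.00 with library weights, -0.10 with high Xist alone and -0.06 to 0.13 with a library left out, and Plekhh3 gave -0.22 to 1.50 with a library left out. At an adjusted p under 0.01, calls went from 2407 to 1476 over all genes, 3 to 0 among other chemokine receptors, 6 to 3 among G proteins, 9 to 4 among desensitisation genes, 7 to 4 among cytoskeleton genes and 12 to 7 among neighbours. Without the variance trend calls were 1670 over all genes and 3, 4 and 3 for the G protein, desensitisation and cytoskeleton lists. Arrb1 (adjusted p = 0.146), Gnaq (0.0786), Vav1 (0.0681), Sacm1l (0.133), Rpsa (0.11) and Cmtm6 (0.19) were among those that then lost their calls. Cmtm6 also lost its call with no filter (0.0538) and with median-ratio scaling (0.0544). With high Xist alone, 1674 genes were called over all, and 1 other chemokine receptor was called. Arrb1, Gnaq, Ccl22, Sacm1l, Rpsa and Cmtm6 were among those that lost their calls there. With a library left out, calls over all genes ran from 1883 to 2207. They ran from 0 to 3 for other chemokine receptors (0 without cKOHet replicate 2, 1 without control replicate 1 or 4 or cKOHet replicate 1). For G proteins they ran from 3 to 6 (3 without control replicate 2) and for neighbours from 7 to 12 (7 without cKOHet replicate 2). The cause was not tested.

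Same-numbered libraries of the 2 groups correlated at 0.092, 0.088 and 0.055 in their deviations from the group means, each the highest for its library, a hint from the data and not from the design. With the replicate block, 2412 genes were called, with 3 receptors higher and 3 lower, Sacm1l lost its call (0.0601) and Ogt gained one (0.0282). The values' unknown depth limits what can be said of Ccr8 and Cx3cr1 in controls.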
